A study of Mus musculus with 16 samples.

Results

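The genes described here encode the proteins of the mitochondrial ribosome. They were taken as every protein-coding mouse gene whose symbol begins with Mrpl or Mrps followed by a digit, which gave 78 of 21883 protein-coding genes on the assembled chromosomes. By background knowledge of the ribosome's structure, 51 of them belong to the large subunit (30 with a bacterial counterpart and 21 specific to mitochondria) and 26 to the small subunit (16 and 10). Mrps30 and Mrps18a carry small-subunit names but belong to the large subunit. The remaining gene, Mrps36, is named for the small subunit, and its product is a subunit of the 2-oxoglutarate dehydrogenase complex.

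The mitochondrial ribosome translates the few messenger RNAs of the mitochondrial genome, all of which encode subunits of the respiratory chain and the ATP synthase. Its ribosomal RNAs come from mitochondrial DNA, whereas its proteins are encoded in the nucleus, made in the cytosol and imported. Their promoters are typical of housekeeping genes, and ETS factors such as GABPA, NRF1 and YY1 are known regulators of nuclear genes for mitochondrial proteins. WDR5 is a scaffold subunit of the histone methyltransferase complexes that methylate lysine 4 of histone H3 at active promoters, and p53 is a stress-activated transcription factor.

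Accessible chromatin was mapped by ATAC-seq, in which a transposase inserts sequencing adapters into open DNA, in 16 libraries of 8 groups with 2 replicates each. All cells were mouse embryonic stem cells (ESCs) with a GFP knock-in at Rx, an eye field gene, or embryoid bodies grown from such ESCs. The 6 ESC groups were kept in 2i+LIF: parental cells; p53 knockout clones C9 and H9, each a single clone; and Wdr5 and p53 double knockout cells carrying the empty backbone plasmid, wild-type WDR5 (WDR5WT) or WDR5 with the S91K-Y191F substitutions. The rescue proteins are human WDR5, per the series title. The 2 embryoid body groups, made by the SFEBq method in medium with 5% KSR and with 2% matrigel from day 1, were parental at day 4 and Wdr5 and p53 double knockout, the latter with no day in the labels and no rescue plasmid. Nothing in the labels says whether replicates were separate cultures, so the spread between them may be technical.

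Each library is a deposited peak list, and a gene was counted as accessible when a peak lay within 1000 bp of either of its ends (an end peak). The lists are bulk measurements, in which fewer cells with an open site and a less open site per cell cannot be told apart. List length varied widely, from 75673 to 93646 peaks in embryoid bodies, 24367 and 5330 in parental ESCs, 26305 to 32709 in the C9, H9 and WDR5WT lists, 5174 and 16257 in S91K-Y191F ESCs, and 1535 and 2492 in backbone ESCs. The widest peak spanned 18810 to 29214 bp in the parental, S91K-Y191F and backbone ESC lists and 7727 to 15921 bp in the C9, H9 and WDR5WT lists, so that list type and genotype cannot be told apart between these sets. Of 8 naive pluripotency markers, 5 to 7 had an end peak in the 8 ESC lists of at least 16257 peaks and 1 to 3 in the 4 shorter ones. In embryoid bodies 7 or 8 did, so that these markers did not set the ESC lists apart. Among 8 neural and eye field markers, 6 to 8 had one in embryoid bodies and 0 to 5 in ESCs; of 8 mesoderm and endoderm markers 5 to 6 and 0 to 5 did. All 8 fibroblast markers lacked one in 5 ESC lists, and 5 had one in every embryoid body list. Wdr5 and Trp53 had end peaks in all 4 embryoid body lists, the double knockout included; a peak at a gene end does not check a deletion.

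Promoter sequences from RefSeq (GRCm38.p6, the build known as mm10) were at hand for 69 of the 78 genes. The first pair below belongs to genes whose promoters had a peak in nearly every library, Mrpl17 in all 16 and Mrps14 in 14. Each line gives the 250 bases before the start, 5′ to 3′ on the gene's strand; capitals mark the short motifs searched, which are spelled out further below. Mrpl17 encodes the counterpart of bacterial protein L17 (chr7:105811088-105811337, minus strand), and Mrps14 the counterpart of S14 (chr1:160194965-160195214, plus strand).
Mrpl17: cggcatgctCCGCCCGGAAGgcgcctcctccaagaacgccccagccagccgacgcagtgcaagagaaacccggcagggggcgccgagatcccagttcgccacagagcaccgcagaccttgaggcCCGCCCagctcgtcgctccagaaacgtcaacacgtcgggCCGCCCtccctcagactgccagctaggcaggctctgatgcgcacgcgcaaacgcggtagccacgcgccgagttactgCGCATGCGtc
Mrps14: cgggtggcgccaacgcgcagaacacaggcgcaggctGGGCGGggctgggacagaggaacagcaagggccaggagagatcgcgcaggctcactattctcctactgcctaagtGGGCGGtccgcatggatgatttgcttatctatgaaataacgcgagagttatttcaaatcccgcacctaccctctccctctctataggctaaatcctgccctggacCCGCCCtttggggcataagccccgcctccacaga
The next lines belong to genes with the fewest end peaks. Mrpl10 encodes the base of the ribosomal stalk (chr11:97041332-97041581, plus strand), and Mrpl22 (chr11:58171414-58171663, plus strand) and Mrpl24 (chr3:87919294-87919543, plus strand) encode counterparts of bacterial L22 and L24.
Mrpl10: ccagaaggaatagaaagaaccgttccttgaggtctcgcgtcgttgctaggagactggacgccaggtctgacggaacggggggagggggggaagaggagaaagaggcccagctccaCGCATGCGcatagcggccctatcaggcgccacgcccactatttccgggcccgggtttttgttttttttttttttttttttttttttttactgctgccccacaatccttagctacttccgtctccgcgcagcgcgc
Mrpl22: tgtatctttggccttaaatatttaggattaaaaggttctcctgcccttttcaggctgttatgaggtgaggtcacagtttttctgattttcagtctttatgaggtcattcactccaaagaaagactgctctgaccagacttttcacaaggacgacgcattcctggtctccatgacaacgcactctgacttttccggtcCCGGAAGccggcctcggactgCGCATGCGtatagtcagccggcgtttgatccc
Mrpl24: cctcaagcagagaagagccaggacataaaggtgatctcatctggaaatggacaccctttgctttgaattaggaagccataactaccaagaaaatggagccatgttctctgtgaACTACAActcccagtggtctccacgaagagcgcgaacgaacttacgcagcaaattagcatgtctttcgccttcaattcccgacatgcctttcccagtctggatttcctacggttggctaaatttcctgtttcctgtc
The last lines show Mrpl43 (chr19:45006443-45006692, minus strand), a mitochondria-specific large-subunit gene whose libraries were the reverse of the usual pattern, and Mrps11 (chr7:78782881-78783130, plus strand), which shares its promoter with Mrpl46. These sequences and that of Mrps14 were chosen after their values were seen.
Mrpl43: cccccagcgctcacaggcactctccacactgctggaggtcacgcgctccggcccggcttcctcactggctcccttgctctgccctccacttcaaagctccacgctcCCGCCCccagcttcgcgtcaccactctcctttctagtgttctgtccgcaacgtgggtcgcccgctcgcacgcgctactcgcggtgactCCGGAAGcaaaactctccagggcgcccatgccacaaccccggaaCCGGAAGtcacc
Mrps11: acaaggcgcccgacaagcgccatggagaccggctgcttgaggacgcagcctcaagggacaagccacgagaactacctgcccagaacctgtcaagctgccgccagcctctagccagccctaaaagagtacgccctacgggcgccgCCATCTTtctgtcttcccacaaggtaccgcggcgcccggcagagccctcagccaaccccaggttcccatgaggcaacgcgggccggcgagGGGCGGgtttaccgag
In the 250 bases shown, Mrpl17 holds SP, ETS and NRF1 motifs, Mrps14 SP motifs only, Mrpl22 ETS and NRF1 motifs and Mrpl10 the NRF1 motif. Mrpl24 holds the ZFP143 motif alone, Mrpl43 SP and ETS motifs, and Mrps11 YY1 and SP motifs.

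Nearly all mitochondrial ribosomal protein genes were accessible in embryoid bodies of both genotypes. An end peak was found at 74 and 75 of the 78 genes in parental embryoid bodies (94.9% and 96.2%; mean 95.5% ± 0.907, SD, n = 2). The double knockout gave 75 and 74 genes (96.2% and 94.9%; mean 95.5% ± 0.907, SD, n = 2). Over all protein-coding genes the share was 66.7% and 65.3% in parental and 64.6% and 66.4% in double knockout embryoid bodies. The same 74 genes had an end peak in all 4 lists, against 13394 of all genes (61.2%). The genotypes had the same mean, and replicates differed by 1 gene.

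In ESCs more mitochondrial ribosomal protein genes were accessible in the 8 longer lists than in the 4 shorter ones. Among lists of like length the number did not strictly follow length. The lists of clone C9 gave 55 and 55 genes (70.5% in each) and those of clone H9 gave 61 and 61 (78.2% in each). WDR5WT ESCs gave 58 and 64 genes (74.4% and 82.1%; mean 78.2% ± 5.44, SD, n = 2). These 6 lists lay within 55 to 64 genes, and all had more than 26000 peaks. In parental ESCs the replicates gave 52 and 12 genes (66.7% and 15.4%), and in S91K-Y191F ESCs 16 and 50 genes (20.5% and 64.1%). Replicates of 1 group thus stood further apart than most groups did, with the shorter list lower in both. Backbone ESCs, with the shortest lists, gave 1 and 6 genes (1.28% and 7.69%).

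**Figure D1:**
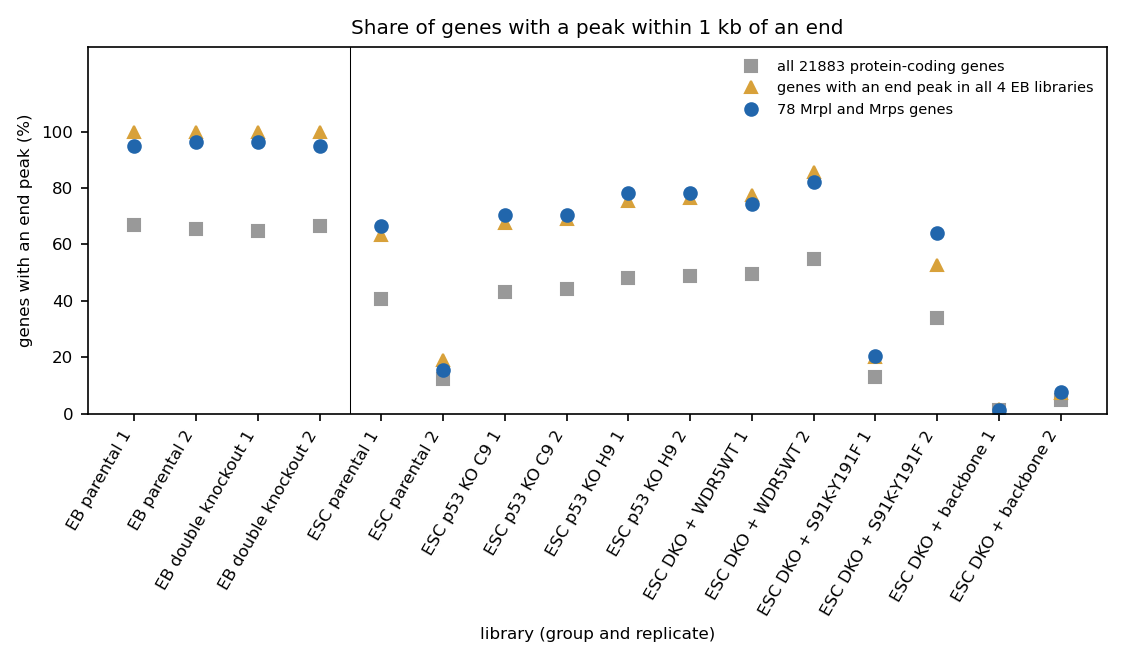
Share of genes with a peak within 1 kb of either end, in percent on the vertical axis, for each library by group and replicate on the horizontal axis. Circles are the 78 Mrpl and Mrps genes, squares all 21883 protein-coding genes and triangles the genes with an end peak in all 4 embryoid body (EB) libraries, which are at 100% there by definition; the vertical line parts EB from ESC libraries. Circles lie well above squares in embryoid bodies and near triangles in most ESC lists.

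The share was above that of all protein-coding genes in each of the 16 lists, by 1.03 to 1.90 times. In the same order of replicates, all genes stood at 40.8% and 12.4% in parental ESCs, 43.0% and 44.3% in C9, 48.2% and 48.8% in H9, and 49.4% and 54.9% in WDR5WT ESCs. S91K-Y191F ESCs had 13.1% and 33.8%, and backbone ESCs 1.24% and 4.90%. Much of this margin was shared by other genes open in embryoid bodies. Among the 13394 genes with an end peak in all 4 embryoid body lists, the 74 mitochondrial ribosomal protein genes had one in 68.9% in parental replicate 1, where all such genes had one in 63.3%. The pairs of values were 16.2% and 19.0% in parental replicate 2, 77.0% and 77.5% in WDR5WT replicate 1, and 85.1% and 85.8% in WDR5WT replicate 2. C9 had 73.0% and 67.6% in replicate 1 and 73.0% and 69.1% in replicate 2, and H9 had 81.1% and 75.5%, then 81.1% and 76.4%. In these 8 lists the 74 genes stood close to the rest. The widest gap was in S91K-Y191F replicate 2, with 66.2% against 52.8%; replicate 1 of that group had 21.6% against 20.2%. No test was made on these shares.

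Other gene families served as a comparison. The 49 Nduf genes, which encode subunits and assembly factors of respiratory complex I, stood at 91.8% to 93.9% in embryoid bodies. A set of 100 genes whose symbols begin with Rpl or Rps followed by a digit, or with Rplp, stood at 88.0% to 89.0%. They are called cytosolic genes here, although this symbol rule can also take in genes that encode no cytosolic ribosomal protein. In H9 replicate 2 the Nduf genes stood at 79.6% and the cytosolic genes at 74.0%, beside 78.2% for the mitochondrial ribosomal protein genes. In S91K-Y191F replicate 2 the same order gave 73.5%, 59.0% and 64.1%. The mitochondrial ribosomal protein genes lay above both in embryoid bodies and between them in these 2 ESC lists. They lay below both in parental replicate 1, at 66.7% beside 79.6% for the Nduf and 73.0% for the cytosolic genes, in parental replicate 2 (15.4%, 20.4% and 17.0%) and in S91K-Y191F replicate 1 (20.5%, 22.4% and 23.0%). No test was made on these orders.

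Within the ribosome, all 26 small-subunit genes had an end peak in all 4 embryoid body lists. Of the 21 mitochondria-specific large-subunit genes 20 did, and of the 30 large-subunit genes with a bacterial counterpart 27 did, with 27 or 28 in each single list. In the 8 ESC lists of at least 16257 peaks, the mitochondria-specific large-subunit genes stood at 76.2% to 90.5% and those with a bacterial counterpart at 50% to 76.7%. Mitochondria-specific genes were the higher of the pair in each of those 8 lists. In the small subunit the same lists gave 50% to 90.0% for the mitochondria-specific genes and 75% to 87.5% for those with a bacterial counterpart. There the order was the opposite in 5 of the 8 lists, and neither difference was tested.

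Mrpl17 was the only gene of the family with an end peak in all 16 libraries, a pattern of 181 protein-coding genes (0.827%). Its peak ranked at percentile 96.3 and 99.6 of the parental and 98.2 and 96.7 of the double knockout embryoid body lists, where percentile 100 is the strongest peak of a list. In ESCs it ranked at 97.0 and 87.9 in parental, 99.0 and 99.3 in C9, 99.0 and 98.5 in H9, 98.6 and 98.5 in WDR5WT and 89.4 and 98.3 in S91K-Y191F lists. In backbone ESCs it ranked at 22.7 and 77.5; ranks in lists of different length do not compare directly. It stood within the strongest 1535 peaks of each of the 11 ESC lists longer than that.

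Mrpl32, Mrpl47, Mrpl50, Mrps28 and Mrps30 had an end peak in 11 of 12 ESC libraries, missing backbone replicate 1 alone. End peaks in 11 ESC libraries were found at 6.41% of the family, 3.12% of all genes and 5.00% of genes open in embryoid bodies. MRPL32 is a substrate of the mitochondrial AAA protease, MRPL47 is the counterpart of bacterial L29, and MRPS28 that of S1. Mrps30 ranked at 98.3 and 40.8 in parental, 98.5 and 99.3 in C9, 99.0 and 99.4 in H9, 98.6 and 98.9 in WDR5WT, 83.05 and 96.9 in S91K-Y191F and 53.8 in backbone replicate 2. In embryoid bodies it ranked at 85.1 and 85.6 in parental and 85.4 and 84.6 in double knockout lists. Ranks of embryoid body and ESC lists rest on different quantities and are given side by side only.

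The strongest peaks of the family in embryoid bodies, by median percentile over the 4 lists, lay at Mrps14 (99.5), Mrps33 (99.3), Mrps28 (98.1), Mrps27 (97.6) and Mrpl17 (97.5). Mrps14 ranked at 99.7, 99.7, 99.3 and 98.0. In ESCs it ranked at 92.1 and 73.3 in parental, 97.7 and 97.4 in C9, 97.8 and 96.7 in H9, 96.8 and 96.5 in WDR5WT and 77.6 and 96.0 in S91K-Y191F lists, with no peak in either backbone list. Mrps33, a small mitochondria-specific protein, had ranks of 97.3 to 99.9 in embryoid bodies and 4.6 and 62.6 in S91K-Y191F ESCs, and no peak in parental replicate 2 or backbone ESCs. Mrps27 encodes a protein of the pentatricopeptide repeat family that binds ribosomal RNA; it ranked at 96.1 to 98.4 in embryoid bodies and at 1.5 and 55.2 in S91K-Y191F ESCs. Both peaks in the shorter S91K-Y191F list were among its weakest.

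**Figure D2:**
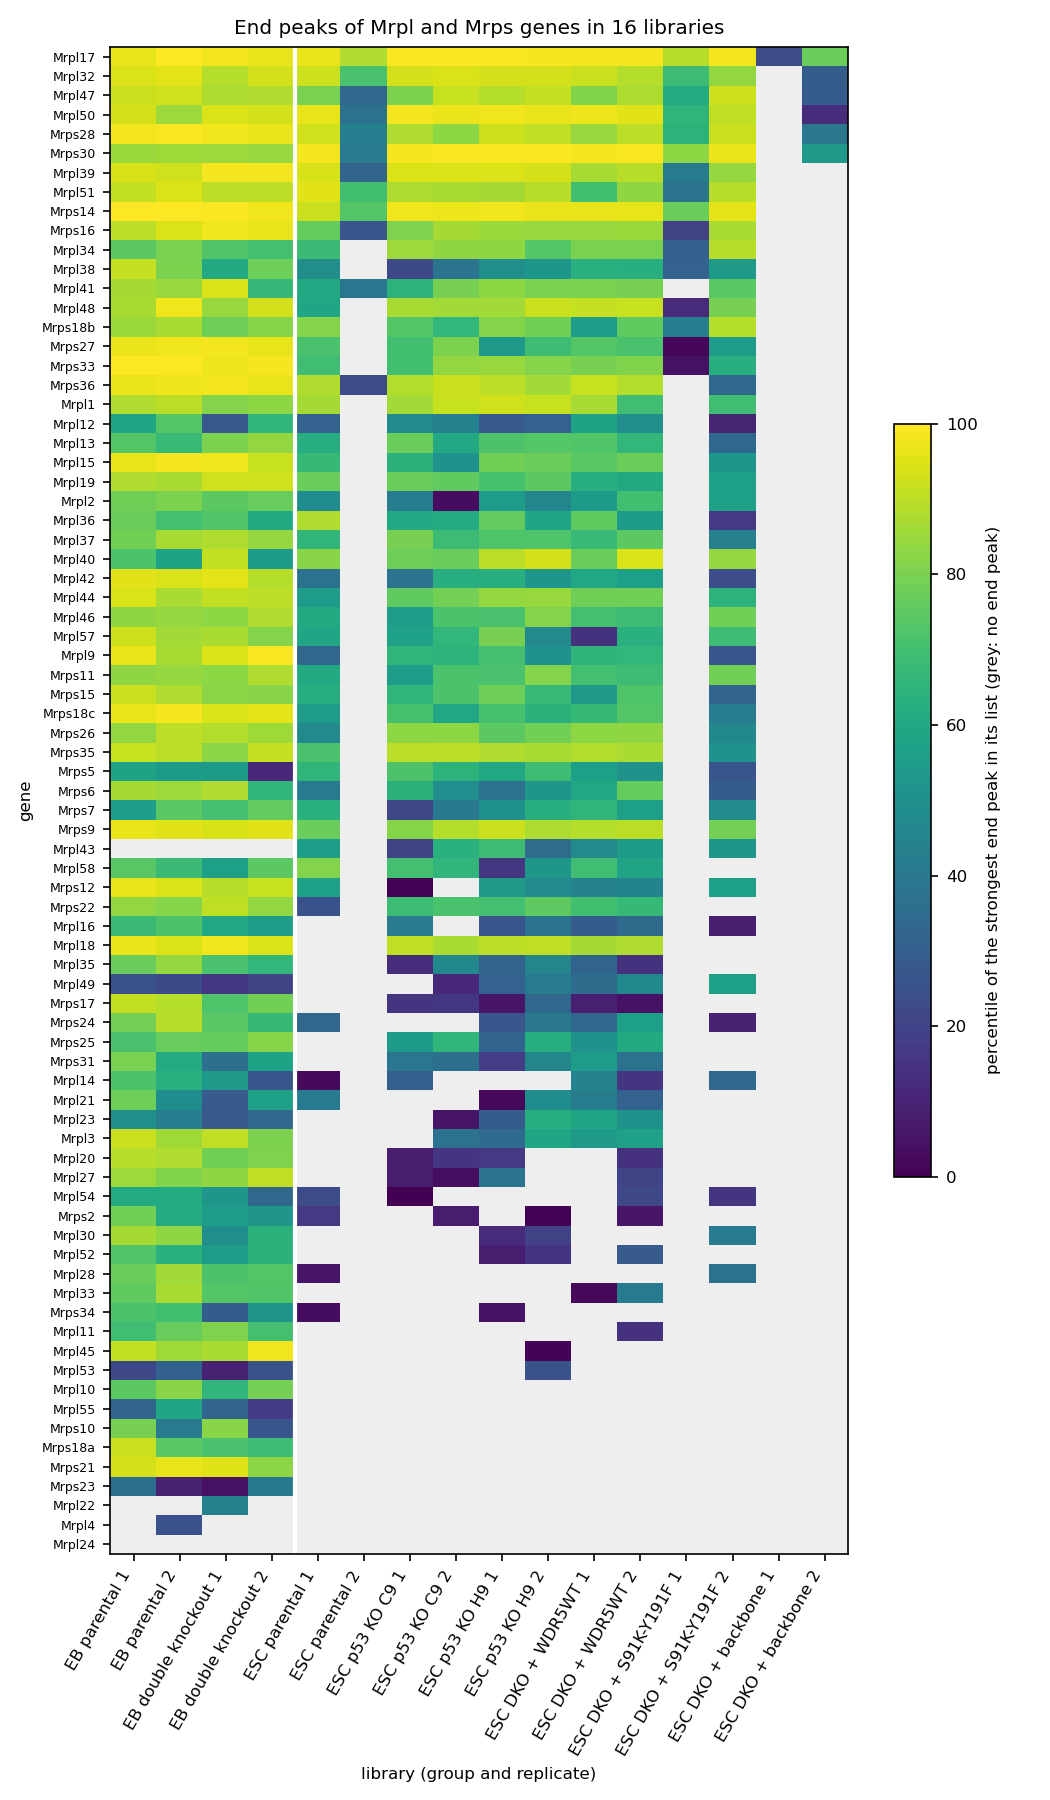
Each row is 1 of the 78 genes, ordered by the number of ESC libraries with an end peak, and each column is 1 of the 16 libraries. Colour gives the percentile of the gene's strongest end peak in its list from 0 to 100, and grey marks genes with no end peak; Mrpl17 fills the top row, the 24 genes with all 8 long and none of the short ESC lists lie in the middle, and Mrpl24 is grey throughout.

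In parental, S91K-Y191F and backbone ESCs, whose replicates differed most in relative length, the family's genes in the shorter list were contained in those of the longer one. All 12 genes of parental replicate 2 were also among the 52 of replicate 1, and all 16 of S91K-Y191F replicate 1 among the 50 of replicate 2. The gene of backbone replicate 1, Mrpl17, was among the 6 of replicate 2. Over all protein-coding genes, 99.4%, 98.6% and 94.9% of those in the shorter list were in the longer one, in the same order. In WDR5WT ESCs all 58 genes of replicate 1 were also in replicate 2. In C9 each replicate held 4 genes of the family that the other lacked, and in H9 each held 3. Exactly the 8 ESC lists of at least 16257 peaks, and none of the 4 lists of up to 5330, held an end peak at 24 genes (30.8% of the family, 13.1% of all genes and 20.8% of genes open in embryoid bodies). These 24 include Mrps9, Mrps35, Mrpl12 of the ribosomal stalk, and Mrpl40 and Mrpl44, the latter resembling ribonuclease III. In all, 42 genes of the family (53.8%, against 28.6% of all genes) had a peak in every one of those 8 lists.

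Parental replicate 2 and S91K-Y191F replicate 1 are lists of similar length (5330 and 5174 peaks) and different genotype. They shared 10 genes of the family, 83.3% of the 12 in the first and 62.5% of the 16 in the second. Over all protein-coding genes the same values were 72.7% and 68.6%, so the family lay above the first and below the second. Mrpl41 and Mrps36 were found in the parental list alone of the pair, and Mrpl34, Mrpl38, Mrpl48, Mrps18b, Mrps27 and Mrps33 in the mutant list alone.

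When lists were cut to the same number of strongest peaks, the libraries came close together. Among the strongest 16257 peaks of each of the 8 longer ESC lists there were end peaks at 42 to 50 genes of the family, 1.44 to 1.90 times the share of all genes. S91K-Y191F replicate 2 was highest with 50, and C9 replicate 2 lowest with 42. Among the strongest 5174 peaks there were 12 to 20 genes over the 10 lists of that length, and 0.99 to 1.66 times the share of all genes. Among the strongest 1535, which is the whole list of backbone replicate 1, there were 1 to 5 genes, with Mrpl17, Mrpl50, Mrps14 and Mrps30 in each of the 6 C9, H9 and WDR5WT lists. At that number of peaks the shares of C9, H9 and WDR5WT (mean 5.13% in each) were below those of all genes.

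**Figure D3:**
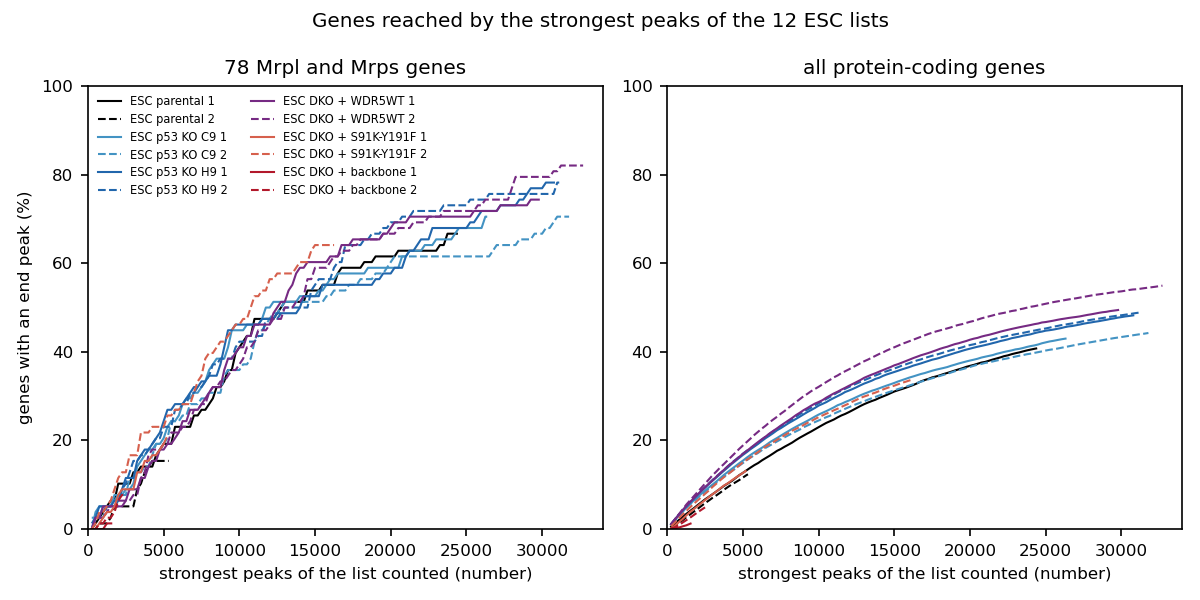
Share of genes with an end peak, in percent, against the number of strongest peaks counted in each of the 12 ESC lists, for the 78 Mrpl and Mrps genes (left) and all protein-coding genes (right). Colours are groups, solid lines replicate 1 and dashed lines replicate 2; each line ends at the length of its list, and the lines of the family run close together up to their ends, at 64.1% for S91K-Y191F replicate 2 and 82.1% for WDR5WT replicate 2.

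The middle rank of the family's end peaks depended on the quantity used. By fold enrichment in embryoid bodies the median percentile was 81.6 to 85.4, above the 75.7 to 80.6 of all genes with an end peak. By the deposited signal in ESCs it was below that of all genes in each list, such as 69.1 against 74.1 in H9 replicate 2 and 67.7 against 75.4 in WDR5WT replicate 2. By the authors' p the order turned in every group but backbone ESCs, where it was 33.8 against 41.3. Group means were then 86.5 against 86.8 in parental and 83.5 against 84.3 in double knockout embryoid bodies, and 66.4 against 60.9 in parental, 72.4 against 68.3 in C9 and 64.2 against 61.0 in S91K-Y191F ESCs. H9 had 72.8 against 71.3 and WDR5WT ESCs 72.1 against 71.6.

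For the loss of WDR5 and p53 in embryoid bodies, genes were counted that had an end peak in both libraries of one genotype and neither of the other. No gene of the family showed this in either direction: 0 were found in double knockout alone (0.695% of all genes) and 0 in parental alone (0.818%). With end peaks in all 4 lists at 74 of the 78 genes, few genes could be called, so these 0 counts say little about the losses. These and the counts below are descriptions with no test, since 2 libraries against 2 cannot give an exact p under 0.333, and 4 against 2 none under 0.0667. Single libraries differed at Mrpl4, with an end peak in parental replicate 2 alone, and Mrpl22, with one in double knockout replicate 1 alone. Leaving out parental replicate 1 gave 1 parental gene, and leaving out double knockout replicate 2 gave 1 double knockout gene. For recounts with a library left out, at equal list length or in the upper part of the lists, here and below, no share over all genes is given. Such recounts are therefore not read as results about the family.

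Backbone ESCs were set against parental ESCs for the same losses in undifferentiated cells. An end peak was found in both parental and neither backbone library at 6 genes of the family (7.69%, beside 7.92% of all genes; of genes open in embryoid bodies, 8.11% of the family and 12.4% of all). These were Mrps14, Mrpl51, Mrpl39, Mrps36, Mrps16 and Mrpl41. Mrpl51 ranked at 95.4 and 69.8 in the parental lists, Mrpl39 at 94.1 and 32.6, Mrps36 at 88.1 and 23.0, Mrps16 at 76.4 and 26.5 and Mrpl41 at 60.4 and 39.2. The share was close to the background. The reverse pattern was found at 0 genes (0.0183% of all genes). The count rose to 46 without parental replicate 2 and to 11 without backbone replicate 2, and fell to 0 at equal list length.

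The rescue comparisons share the backbone or the WDR5WT libraries and are not independent. WDR5WT ESCs had end peaks that both backbone libraries lacked at 52 genes of the family, 31 of the large and 20 of the small subunit beside Mrps36 (66.7%, beside 43.7% of all genes; of genes open in embryoid bodies, 68.9% of the family and 68.7% of all). The strongest were Mrps14, Mrpl48, Mrps36, Mrps9 and Mrpl39. S91K-Y191F ESCs had them at 10 genes (12.8%, beside 8.32% of all genes; of genes open in embryoid bodies, 13.5% of the family and 13.1% of all), led by Mrps14, Mrps18b, Mrpl51, Mrpl39 and Mrpl34. The other 5 were Mrps16, Mrpl48, Mrpl38, Mrps33 and Mrps27. Backbone alone held 0 genes in both comparisons (0.219% of all genes against WDR5WT and 0.00% against S91K-Y191F). Both shares were close to those of genes open in embryoid bodies. Without S91K-Y191F replicate 1 its count was 44, and at equal list length the counts were 2 for WDR5WT and 1 for S91K-Y191F.

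Between the mutant and the wild-type protein, 11 genes had end peaks in both WDR5WT and neither S91K-Y191F library (14.1%, beside 15.9% of all genes; of genes open in embryoid bodies, 14.9% of the family and 24.5% of all). They included Mrpl18, Mrps22, Mrpl58, Mrps25 and Mrpl3; Mrpl58 encodes a peptidyl-tRNA hydrolase that is built into the large subunit. The other 6 were Mrpl23, Mrps31, Mrpl21, Mrpl35, Mrpl33 and Mrps17. The reverse was found at 0 genes (0.366% of all genes). Without S91K-Y191F replicate 2, a list of 16257 peaks, the count of 11 became 42, and at equal list length 3 genes were found in each direction. The shares of all genes are not given for these recounts, so they do not set the family apart.

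Of the groups without p53, WDR5WT and the 2 knockout clones, with WDR5 from the transgene or the endogenous gene, had lists of like length. Mrpl33, the counterpart of a bacterial protein of the tRNA exit region, was found in both WDR5WT libraries and none of 4 knockout libraries (1 gene; 1.14% of all genes and 1.68% of those open in embryoid bodies). It ranked at 2.0 and 40.7 in the WDR5WT lists. The reverse was found at 0 genes (0.119%). Leaving out WDR5WT replicate 1, or C9 replicate 1, gave 2 genes, and none was left at equal list length or in the upper 50% of the lists by deposited p.

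Clones C9 and H9 differed from each other at 4 genes of the family, Mrps24, Mrpl21, Mrpl30 and Mrpl52, found in H9 alone (5.13%; 2.3% of all genes and 3.5% of those open in embryoid bodies), and at 0 found in C9 alone (0.242%). Without C9 replicate 2 the first count was 7, and without C9 replicate 2 or H9 replicate 1 the second was 2. In the upper 50% of each list by p the first count was 0. Against parental ESCs, all 4 knockout libraries and neither parental library had end peaks at Mrpl18, Mrps25, Mrpl35, Mrps31 and Mrps17 (5 genes, 6.41%; 4.51% of all genes and 6.91% of those open in embryoid bodies). The reverse was found at 0 genes (0.356%). The count of 5 became 37 without parental replicate 1 and 8 without C9 replicate 1.

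Mrpl18, whose product is known to take part in the import of a small cytosolic ribosomal RNA, shows how the gene table can set such a call. By the ends in the table (chromosome 17, 12911345 to 12917787) its peak was found in all 6 C9, H9 and WDR5WT lists and none of the other 6 ESC lists. Its RefSeq start at 12916091 lies 1696 bp inside the table's end. By that start, 11 of 12 ESC lists held a peak within 1000 bp, 2 in parental and in S91K-Y191F ESCs and 1 in backbone ESCs among them. Counted from starts, Mrpl18 was therefore found in neither comparison above. Of the 69 genes with a start, 4 were then found for the knockout clones against parental ESCs, beside 4.62% of all 17491 genes with a start. WDR5WT gave 10 of the 69 genes against S91K-Y191F, beside 15.9% of all such genes. Against backbone it gave 45 of the 69 genes, beside 45.5% of all such genes.

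The 9 genes with no end peak in any ESC library were Mrpl4, Mrpl10, Mrpl22, Mrpl24, Mrpl55, Mrps10, Mrps18a, Mrps21 and Mrps23 (11.5%, against 40.8% of all genes). Of the 74 open in all 4 embryoid body lists 6 had none, beside 10.2% of all such genes. Mrpl24 had none in the embryoid bodies either. Its start (chromosome 3, 87919544) nonetheless lay inside a peak in all 4 embryoid body lists, with a fold enrichment of 4.02 and 4.35 in parental and 3.67 and 3.83 in double knockout lists. Those peaks were 1137 to 1186 bp from the nearest end in the table, just outside the window. The start of Mrpl22 (chromosome 11, 58171664) was likewise inside a peak in all 4 lists, with fold enrichments of 3.55, 3.85, 3.21 and 3.33. Mrpl4, which encodes a protein that lines the exit tunnel, had its nearest peak 1310, 526, 1388 and 1395 bp from an end. Only parental replicate 2 was inside the window. Mrps23 had a start peak in 4 ESC libraries, although its ends had none.

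Counted from RefSeq starts, 68 of 69 genes of the family had a peak within 1000 bp in all 4 embryoid body lists (98.6%, against 62.7% of 17491 genes). The exception was Mrpl43. Starts with no peak in any ESC list were those of Mrpl10, Mrpl24, Mrpl55, Mrps2, Mrps10, Mrps18a and Mrps21 (10.1%, against 39.3% of all genes). Mrpl10 had a peak over its start with fold enrichments of 4.32, 4.79, 3.86 and 4.66 in the embryoid body lists, while its nearest ESC peak outside backbone libraries was 11382 to 63470 bp away.

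Peaks sat on the start rather than the far end, in the family as over all genes. Of the 51 genes longer than 4 kb with a known strand, all 51 had a peak at the start in each embryoid body list. At the far end 5 to 7 had one (9.80% to 13.7%). Of 14057 protein-coding genes taken the same way, 73.3% to 75.4% had one at the start and 11.0% to 13.8% at the far end. In the 8 longer ESC lists the start had a peak at 29 to 43 genes of the family and the far end at 0 to 3. Over all such genes, 40.9% to 64.8% had one at the start and 2.40% to 5.44% at the far end in those lists. The median position of the peak centre in embryoid bodies was -31.5 to 16.5 bp from the start. The ESC summit, the base of highest signal, had a median position of -117 to -8.0 bp. Only the strongest peak within 1000 bp of a start entered, so closeness to the start was partly set in advance. Of these peaks, 80.0% to 100% per list had their centre or summit within 250 bp of it. The 100% rests on 1 peak in backbone replicate 1, and the -117 bp on 6 peaks in backbone replicate 2.

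**Figure D4:**
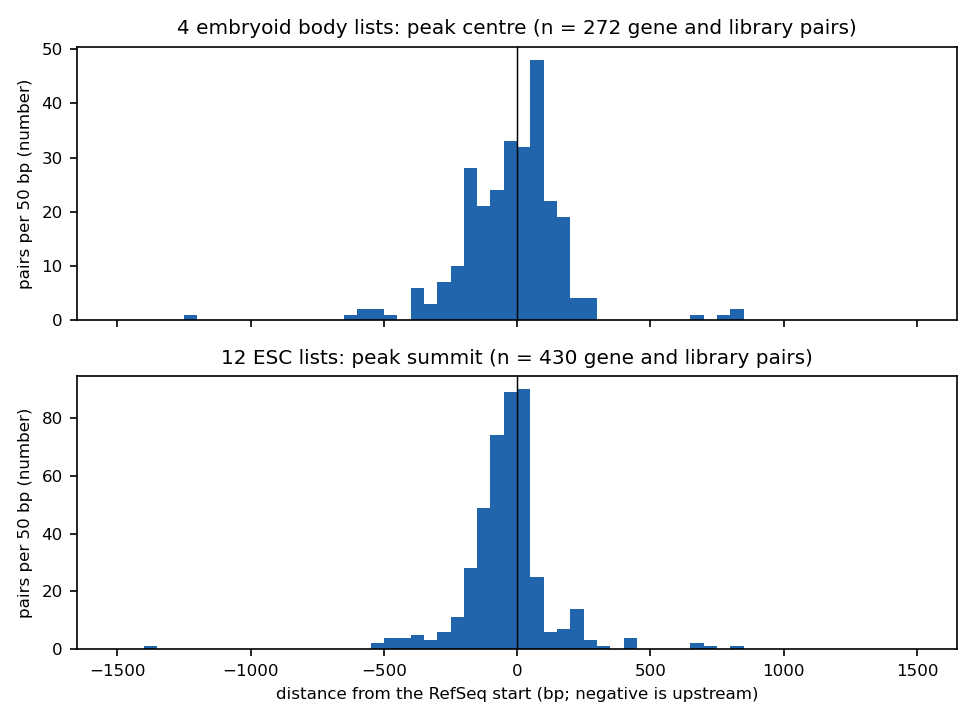
Number of gene and library pairs per 50 bp of distance from the RefSeq start. Distances are to the centre (embryoid bodies, top) or summit (ESCs, bottom) of the strongest peak within 1000 bp of the start. Pairs come from the 69 genes with a known start, and those with no such peak are left out. Negative distances are upstream. Both distributions are centred close to the start.

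An end peak of these genes can also lie near an end of a neighbour. Another protein-coding gene had an end within 1 kb of either end of 44 of the 78 genes (56.4%, against 24.8% of all genes). Starts were not counted apart from far ends here. Mrpl46 and Mrps11 are the clearest case, since their starts at 78783089 and 78783131 on chromosome 7 face away from each other and their end peak was the same one in the 12 libraries that held it. The other 4 had none at either gene. Genes with such a neighbour had end peaks in 95.5% in parental embryoid body replicate 1, and those without in 94.1%. Over all genes the same values were 86.5% and 60.2%. In H9 replicate 1 the family had 81.8% and 73.5%, and all genes 66.0% and 42.4%. The margin over all genes was the larger for genes of the family without such a neighbour in these 2 lists, but not in every list. In parental ESC replicate 1 the family had 79.5% and 50%, and all genes 59.3% and 34.7%. In S91K-Y191F replicate 2 it had 77.3% and 47.1%, and all genes 52.6% and 27.6%. These differences were not tested.

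Short motifs were counted in the 300 bases from 250 before to 50 after the start, on both strands, as a description of letters and not of bound sites. The ETS and GABPA motif CCGGAAG was found in 37.7% of 69 promoters of the family, 12.9% of 17491 promoters and 18.1% of the 10684 promoters of genes open in embryoid bodies. The YY1 motif AAGATGG gave 18.8%, 7.18% and 7.80% in the same order, and the NRF1 motif GCATGCG 11.6%, 4.95% and 6.83%. These motifs were held by 26, 13 and 8 promoters of the family. ACTACAA, named for ZFP143, gave 7.25%, 4.19% and 4.59%. The SP motif GGGCGG was found in 49.3%, 49.2% and 68.3%. CCAAT for NF-Y gave 39.1%, 42.3% and 42.6%, TGACGTC for CREB 5.80%, 4.35% and 5.94%, the E box CACGTG 7.25%, 8.91% and 11.3%, and TATAAA 7.25%, 14.8% and 8.48%. The NRF1 motif and its reverse complement overlap in the palindrome seen in Mrpl10, Mrpl17 and Mrpl22, and the SP and ETS motifs overlap in Mrpl17. Median GC content was 58.0% in the family, 56.3% over all promoters and 61.0% in those open in embryoid bodies, with a median of 21, 13 and 20 CpG dinucleotides. The ETS motif was held by 3 of 9 genes with peaks in 10 or more ESC libraries and 23 of the other 60.

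**Figure D5:**
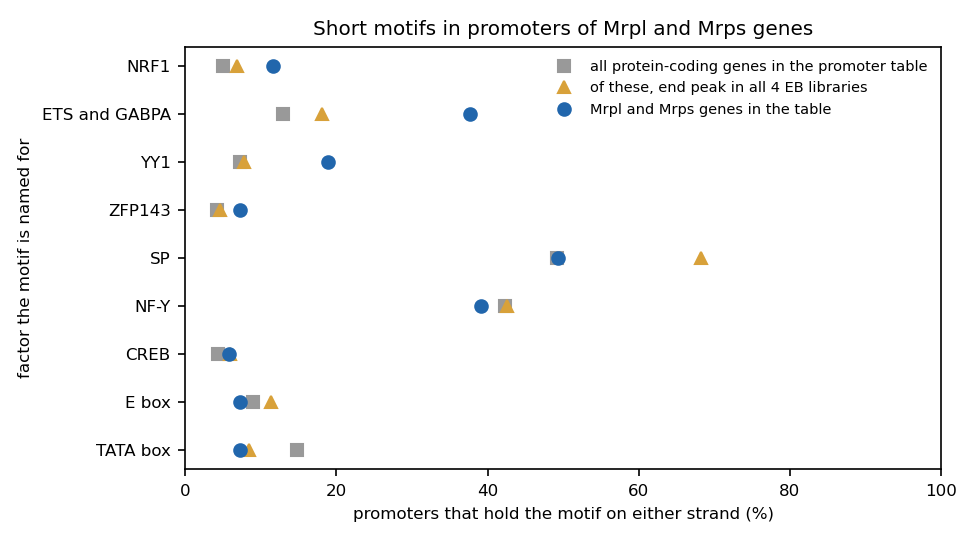
Percentage of promoters that hold each short motif on either strand, by the factor the motif is named for. Circles are the 69 promoters of Mrpl and Mrps genes, squares all 17491 promoters and triangles the 10684 of genes with an end peak in all 4 embryoid body (EB) libraries; the circles for ETS and GABPA (37.7%) and YY1 (18.8%) lie to the right of both.

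Other genes of mitochondrial gene expression behaved alike in embryoid bodies. All 5 mitochondrial ribosomal proteins with other names, all 6 genes of mitochondrial transcription and RNA stability, and 30 of 31 translation and ribosome assembly factors had end peaks in all 4 lists. Of 17 mitochondrial aminoacyl-tRNA synthetases 15 did, and Aars2 and Tars2, for alanine and threonine, had none in any of the 16 libraries. Of 11 regulators of mitochondrial biogenesis 10 did, and Gabpb1, the partner subunit of GABPA, had none in any library. These counts rest on ends in the gene table, and peaks at the starts of these genes are not given. As Mrpl24 showed, a gene with no end peak can have a peak at its start. None of these gene lists held a gene found in only 1 genotype of embryoid bodies, a pattern that genes with end peaks in all 4 libraries cannot show. End peaks in both S91K-Y191F and neither backbone library were found at 0 of the 5 ribosomal proteins with other names, 1 of 31 factors, 2 of 6 genes of transcription and RNA stability, 5 of 17 synthetases and 4 of 11 regulators, beside 8.32% of all genes. End peaks in both WDR5WT and neither S91K-Y191F library were found, in the same order, at 1, 7, 0, 0 and 1 genes, beside 15.9% of all genes. The lists are short, and no test was made on these counts.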

How the data were processed

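Chromatin accessibility by ATAC-seq was analysed from 16 deposited peak lists, 2 libraries in each of 8 groups. Per the submitters' processing notes, the tools were DESeq2, MACS2 2.1.2, Genrich 0.6, SAMtools and Bowtie2 2.3.5 and the build was mm10; what each did is not given in the sources used here. In the deposited ESC lists, each peak has a signal of unstated scaling, never under 200, a −log10 p and a summit offset, an other value counted in bases. In the deposited embryoid body lists it has a ratio (fold enrichment over local background) and −log10 p, with blacklisted regions removed by the authors, per the file names. Lists were set up per library, not on pooled replicates. They hold no counts, so the depth is unknown and no interval is given.

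Only peaks of the autosomes and sex chromosomes entered. The gene table (GRCm38.p6) has no strand, so peaks within 1000 bp of either gene end were counted. Where RefSeq promoters give strand, distances were taken from the start. Signal, fold and p served to rank peaks inside each list. A gene was called for 1 group when all its libraries and none of the other group's had an end peak. No test was run. The presence calls were checked on simulated data. Python 3.11.15 with pandas 2.3.3 and numpy 2.4.6 was used.

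Named are genes missing from an embryoid body library or in the fewest ESC libraries, those in all 16, up to 5 per comparison and direction, and the 5 of highest embryoid body rank; others named were chosen after their values were seen. The 78 genes and all lists were chosen with earlier results of these data known. Alternatives were windows of 500 and 2500 bp, the upper 50% of each list by p, summits, equal list length, ranking by p, leaving out each library and, chosen after seeing the data, RefSeq starts and the strongest 5174 or 16257 peaks.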

Additional observations from a re-analysis of the deposited data

How the results depend on the processing

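Taken by group over the alternatives, the share of accessible genes of the family was above that of all genes in 77 of 80 values. The exceptions were C9, H9 and WDR5WT at equal list length. Single lists of other groups were also below all genes. Backbone replicate 1 had 1.28% against 1.58% with 2500 bp and 0.0% against 0.366% in the upper 50% by p. S91K-Y191F replicate 1 had 3.85% against 3.92% at equal length. Shares in percent, in the order parental and double knockout embryoid bodies, C9 and H9, were 91.03, 90.4, 66.0 and 73.7 with a window of 500 bp; 98.7, 98.7, 73.1 and 81.4 with 2500 bp; 94.2, 94.2, 69.2 and 75.6 by summits or centres; and 98.6, 98.6, 68.8 and 76.8 from RefSeq starts, chosen after seeing the data. In the upper 50% by p they were 91.03, 86.5, 47.4 and 54.5, and 57.7 in WDR5WT. At equal length they were 94.2 in double knockout embryoid bodies and 5.13 in C9, H9, WDR5WT and S91K-Y191F. The strongest 5174 peaks, chosen after seeing the data, gave 21.2 in C9, 24.4 in H9 and 19.2 in WDR5WT, and the strongest 16257 gave 55.8, 57.1 and 61.5.

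Without 1 library each, shares ranged from 94.9% to 96.2% in both embryoid body groups, 15.4% to 66.7% in parental, 74.4% to 82.1% in WDR5WT, 20.5% to 64.1% in S91K-Y191F and 1.28% to 7.69% in backbone ESCs. Counts of genes found in 1 group ranged from 0 to 1 in each direction in embryoid bodies, 6 to 46 for parental against backbone, 10 to 44 for S91K-Y191F against backbone, 52 to 58 for WDR5WT against backbone, 11 to 42 for WDR5WT against S91K-Y191F and 0 to 2 in reverse, 1 to 2 for WDR5WT against the knockout clones, 5 to 37 for the clones against parental ESCs and 0 to 1 in reverse, and 5 to 7 for H9 and 0 to 2 for C9 between the clones.

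At equal length the counts were 0 for parental against backbone, 1 for S91K-Y191F and 2 for WDR5WT against backbone, 3 each way between S91K-Y191F and WDR5WT, and 0 for WDR5WT against the clones. In the upper 50% by p they were 6 for S91K-Y191F against backbone, 0 for WDR5WT against the clones and 0 for H9 against C9. Windows of 500 and 2500 bp gave 3 for the clones against parental, and summits or RefSeq starts gave 1 for C9 against H9. Ranking by p moved median percentiles to 86.5 and 83.5 in embryoid bodies, 72.4 in C9, 72.8 in H9, 72.1 in WDR5WT and 64.2 in S91K-Y191F ESCs. The cause was not tested, except that equal length keeps fewer peaks. No paired analysis was possible because the results come from no test. Unknown depth and differing list length limit all ESC counts. The recounts of genes found in 1 group are given here without the share over all genes, so they are not read as results about the family.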

Other observations

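Mrpl43 (chromosome 19, 45005014 to 45006442, minus strand) was the only gene of the family with no peak near its ends in any embryoid body list and an end peak in ESCs. It was found in the 8 ESC lists of at least 16257 peaks, at percentile 55.5 in parental replicate 1, 19.5 and 63.3 in C9, 68.8 and 35.9 in H9, 47.0 and 54.4 in WDR5WT and 53.1 in S91K-Y191F replicate 2. A peak in 8 or more ESC libraries and no embryoid body library was found at 118 of all genes (0.539%). An end of Twnk lies within 1 kb of it; Twnk encodes the mitochondrial DNA helicase.

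The embryoid body lists held no peak at all over 108.118 kb around Mrpl43, from 44989776 to 45097893 on chromosome 19. That stretch holds 6 protein-coding genes, Kazald1, Lzts2, Mrpl43, Pdzd7, Sfxn3 and Twnk, and the 8 longer ESC lists had 3 to 6 peaks in it. Blacklisted regions were removed from the embryoid body lists, and the part of that step in the gap was not tested. Mrpl43 was chosen for this description after its values were seen.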
